A study of Homo sapiens with 9 samples.

Results

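Messenger RNA of 36 genes of the heat shock response, the unfolded protein response of the endoplasmic reticulum (ER) and the integrated stress response was followed through 9 RNA-seq libraries of U937-Cas9 cells. The genes were taken from a list of symbols and matched to the count table through their Ensembl identifiers. All 36 were found among 20265 identifiers, and all 36 passed the filter on low counts that left 11517 genes to test. They fall into 14 heat shock genes, 9 genes of ER folding and ATF4 with 12 of its targets. U937 is a long-established human cell line of monocytic character, and Cas9 is the nuclease used to make knockouts. The libraries form 3 groups of 3, labelled IRF2KO_pIRF2, IRF2KO (cells with a knockout of interferon regulatory factor IRF2) and WT. All 3 groups are of the U937 line and, by the series' title, of U937-Cas9 cells. The labels name no treatment, and they say neither what pIRF2 encodes, nor how IRF2 was edited, nor whether the cells were a single clone or the replicates separate cultures. Every p-value therefore measures only the spread between these libraries, which may be technical.

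Library totals ran between 14824907 and 23108288 counts. On the first principal component of log2 CPM, IRF2KO replicate 2 (52.3) and WT replicate 1 (-36.1) stood apart at opposite ends, with the other 7 libraries between -14.55 and 6.54. IRF2 itself averaged 17.3 ± 1.75 CPM in IRF2KO_pIRF2, 24.9 ± 1.26 CPM in IRF2KO and 40.1 ± 3.60 CPM in WT (SD, n = 3 each), where CPM is the count scaled to a common library size. It was lower in IRF2KO than in WT (log2 fold change -0.68 ± 0.13 SE, edgeR adjusted p = 0.043). It was lower in all 20 other settings tried (-0.77 to -0.55), but the adjusted p was under 0.05 in 9 of them and reached 0.22. All 3 libraries labelled IRF2KO_pIRF2 had lower IRF2 CPM than all 3 IRF2KO libraries (log2 -0.53 ± 0.13, edgeR adjusted p = 0.24). The adjusted p of that difference was under 0.05 in 2 of the 20 other settings. Against WT, IRF2KO_pIRF2 stood at -1.22 ± 0.13 (edgeR adjusted p = 0.0029), and under 0.05 in all 20 other settings. For this group the label is therefore used only as a name. Of 14 myeloid markers, the granule protease genes ELANE and PRTN3 and the lysozyme gene LYZ stood at 534.5 CPM or more in every library. CD14 had 5 counts in all 9 libraries and MPO stayed between 0.129 and 0.513 CPM. Summed, the myeloid markers reached 5639 to 5925 CPM in IRF2KO_pIRF2, 6088 to 9432 CPM in IRF2KO and 4874 to 7377 CPM in WT. Of 21 markers of other cell types, the T cell gene CD3D, the B cell gene MS4A1, the erythroid genes HBA1, HBA2 and HBB, the platelet gene PF4, the epithelial gene EPCAM and the fibroblast genes COL1A2 and COL3A1 had 0 counts. NKG7, at 288.5 to 452 CPM, was the most abundant of these 21, whose sum reached 336 to 355 CPM in IRF2KO_pIRF2, 329 to 472 CPM in IRF2KO and 296 to 370 CPM in WT. The part of either marker list in the results that follow was not tested. In bulk libraries, fewer cells of a kind and less RNA per cell cannot be told apart.

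Cells answer misfolded proteins and starvation through a few linked programs. In the heat shock response, unfolded protein in the cytosol frees the transcription factor HSF1, which binds heat shock elements and raises the HSP70, HSP90 and small heat shock chaperones with their helpers. In the ER, the sensors IRE1, PERK and ATF6 detect unfolded protein: IRE1 splices XBP1 mRNA, and ATF6 and XBP1 raise chaperones and folding enzymes such as HSPA5 (BiP). PERK and the related kinases GCN2, PKR and HRI phosphorylate eIF2 alpha, which lowers translation in general but favours that of ATF4. ATF4 then raises genes of amino acid synthesis and transport, and the factors DDIT3 (CHOP) and ATF3. Splicing of XBP1 and translation of ATF4 are not measured by counts per gene.

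None of the 36 genes passed an adjusted p of 0.05 in any comparison of groups. IRF2KO against WT gave 0 of 36, beside 0.417% of all genes tested. IRF2KO_pIRF2 against IRF2KO gave 0 of 36, beside 0.365%, and IRF2KO_pIRF2 against WT gave 0 of 36, beside 0.0781%. The test was the quasi-likelihood F-test of edgeR with Benjamini-Hochberg adjustment over 11517 genes, and the lowest adjusted p of a member was 0.26, 0.42 and 0.74 in those 3 comparisons. DESeq2 and limma-voom also called 0 of the 36 in each. At an unadjusted p under 0.05, edgeR gave 5 members in IRF2KO against WT (13.9% of 36, beside 18.7% of all genes). It gave 2 in IRF2KO_pIRF2 against IRF2KO (5.56%, beside 11.2%) and 4 in IRF2KO_pIRF2 against WT (11.1%, beside 3.92%). DESeq2 gave 6, 4 and 5 members, beside 2323, 1381 and 458 of all 11517 genes. Limma-voom gave 5, 2 and 5, beside 2053, 1243 and 443 of all genes. The 3 comparisons share libraries, so their values are not independent of each other.

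The intervals say how large a difference these libraries leave room for. The 95% interval of the fold change (not adjusted for the number of genes) lay wholly within 2-fold in either direction for 35 of 36 genes in IRF2KO against WT (97.2%, beside 84.7% of all genes tested). The same held for 35 of 36 in IRF2KO_pIRF2 against IRF2KO (beside 89.0%) and for 36 of 36 in IRF2KO_pIRF2 against WT (beside 92.3%). The exception in both comparisons was CHAC1, which encodes a glutathione-degrading enzyme and had as few as 11 counts in a library. Its log2 interval ran from -0.02 to 1.26 in IRF2KO against WT and from -1.06 to 0.17 in IRF2KO_pIRF2 against IRF2KO. The 3 libraries of each group did not overlap for 7 members in IRF2KO against WT (beside 17.2% of all genes), 7 in IRF2KO_pIRF2 against IRF2KO (beside 22.6%) and 6 in IRF2KO_pIRF2 against WT (beside 11.6%). As shares of 36 these are 19.4%, 19.4% and 16.7%.

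**Figure D1:**
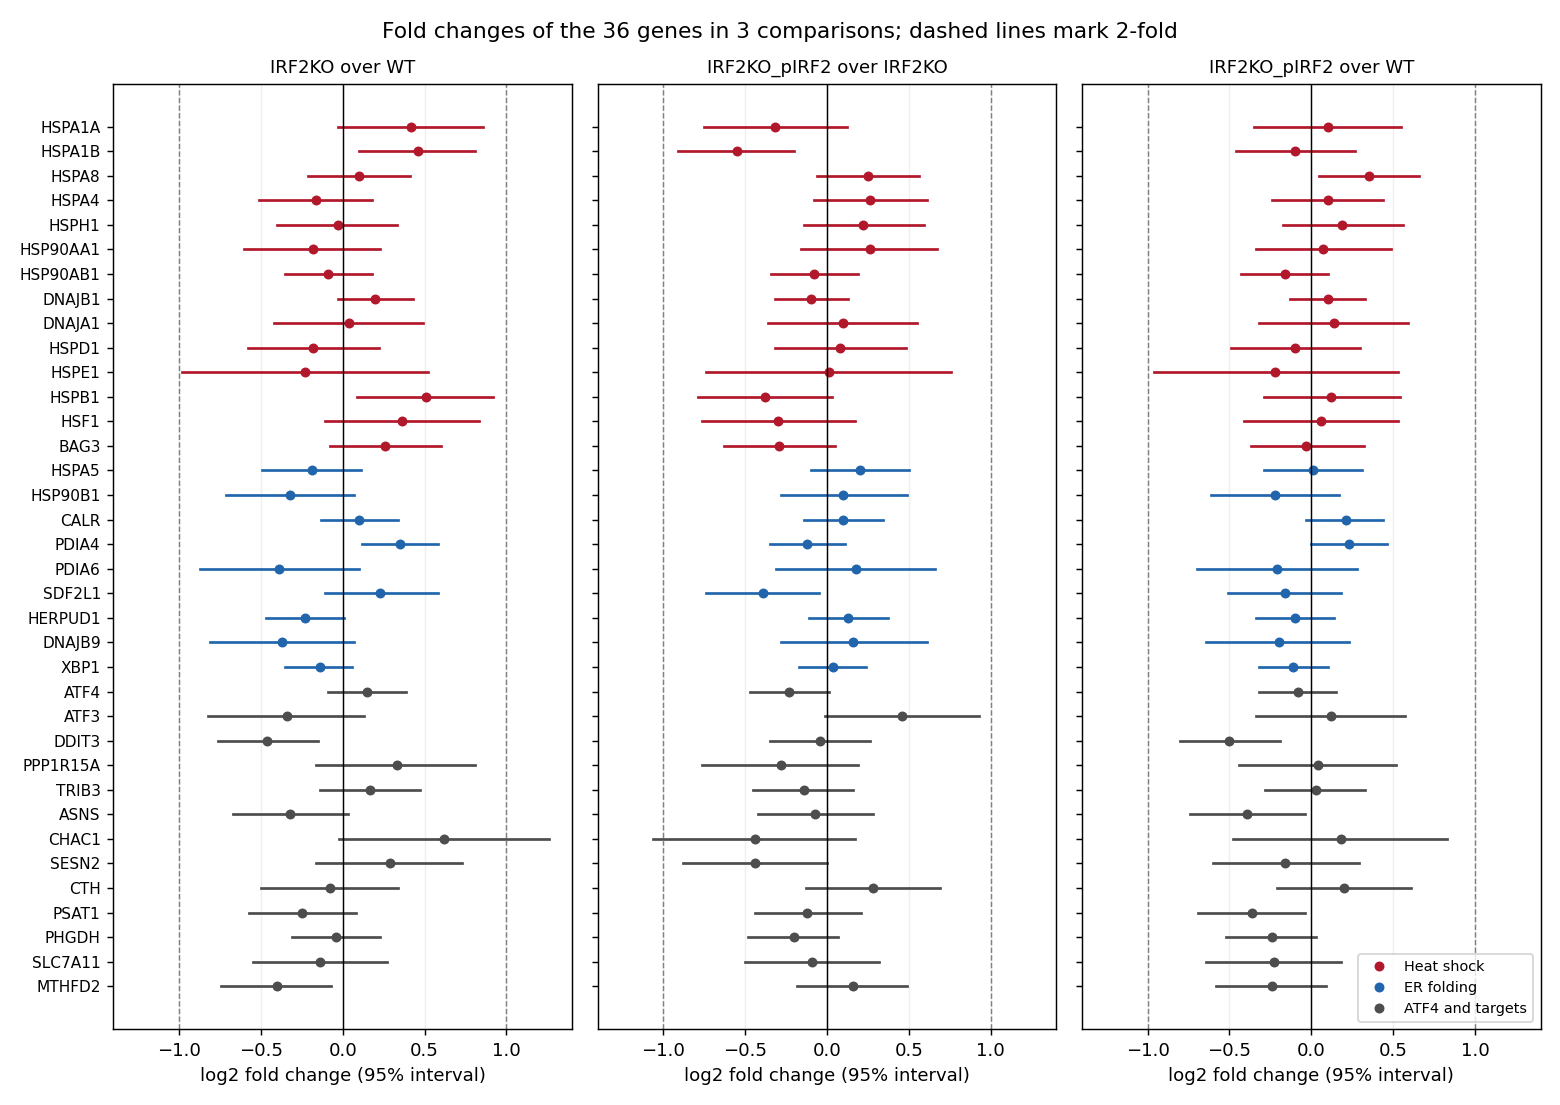
Points are log2 fold changes of the 36 genes (horizontal axis, with 95% intervals) in IRF2KO over WT, IRF2KO_pIRF2 over IRF2KO and IRF2KO_pIRF2 over WT, n = 3 libraries a group, coloured by list. All points lie between the dashed lines that mark 2-fold, and the interval of CHAC1 crosses such a line in the first 2 panels.

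Levels per length of transcript spanned a wide range. Over all 9 libraries, the cytosolic HSP90 chaperone HSP90AB1 stood highest at 823 CPM per kilobase of exonic length, followed by the ER lectin chaperone CALR at 555 and the small heat shock protein HSPB1 at 490. ATF4 had 278 and the serine synthesis enzyme PSAT1 243. The lowest levels were those of the stress-inducible HSP70 genes HSPA1A and HSPA1B at 1.35 and 1.59, the ER co-chaperone DNAJB9 at 1.41, CHAC1 at 0.553 and the transcription factor ATF3 at 0.471. Of the words of 50 bases in the HSPA1A and HSPA1B transcripts, 72.6% and 73.5% also occur in transcripts of other genes. Both levels therefore depend on how such reads were treated, which is unknown. Cells exposed to heat or to an ER stressor are not among these libraries, so no stressed level is at hand to compare with.

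**Figure D2:**
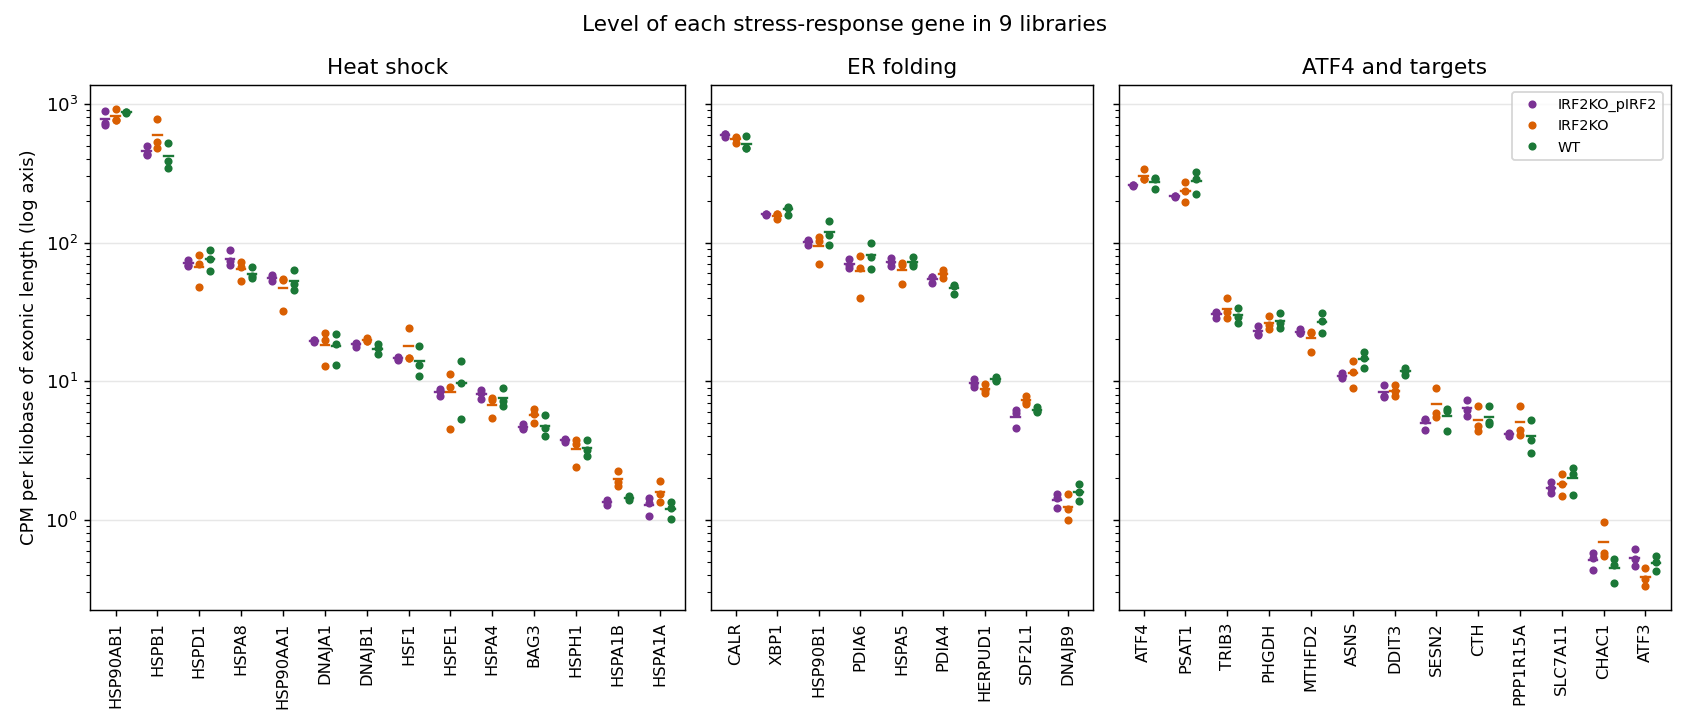
Points are single libraries and short lines are group means (n = 3) of CPM per kilobase of exonic length, on a log axis, for heat shock genes, ER folding genes, and ATF4 with its targets, ordered by mean level. HSP90AB1 leads at a mean of 823 and ATF3 is lowest at 0.471, and within each gene the 3 groups lie close together beside that range.

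Among the heat shock genes, HSPA8 encodes the constitutive HSC70 chaperone, and it lies on chromosome 11 (GRCh38, chr11:123057489-123063230, minus strand, ENSG00000109971.13). Of 13 heat shock genes with a RefSeq promoter, from 250 bases before to 50 after the start, 2 held a heat shock element of the blocks GAA, TTC and GAA with 2 free bases between neighbours, on either strand, against 0.487% of 27305 promoters. DNAJA1, an HSP40 co-chaperone, held it after the start. HSPA8 held it with its upstream end at -230 and at -55 from the start, shown here because it is the only member with a pair of these elements. The stretch is chr11:123062149-123062386, minus strand, from RefSeq on GRCh38.p14, with the fixed letters of both elements in capitals.
HSPA8: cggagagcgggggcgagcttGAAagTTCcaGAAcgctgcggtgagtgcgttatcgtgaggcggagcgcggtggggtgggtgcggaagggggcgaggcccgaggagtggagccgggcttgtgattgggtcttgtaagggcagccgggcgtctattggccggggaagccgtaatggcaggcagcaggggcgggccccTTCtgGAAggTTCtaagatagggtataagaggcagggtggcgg
The second element reads on the opposite strand, so its blocks appear as TTC, GAA and TTC. A match is a description of letters and not a site shown to be bound.

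HSPA8 had 332, 425 and 354 CPM in IRF2KO_pIRF2, 325, 255 and 352 CPM in IRF2KO and 278, 271 and 320 CPM in WT. All 3 IRF2KO_pIRF2 libraries lay above all 3 WT libraries, while IRF2KO overlapped both groups. IRF2KO_pIRF2 over WT was 0.35 ± 0.14 on the log2 scale (SE, interval 0.05 to 0.66, edgeR adjusted p = 1.0). HSPH1, an HSP110 nucleotide exchange factor for HSP70, had 30.7, 31.9 and 32.3 CPM in IRF2KO_pIRF2, against 31.7, 24.3 and 27.0 CPM in WT. These libraries overlapped (log2 0.19 ± 0.17, edgeR adjusted p = 1.0), and the value was 0.11 without WT replicate 2 and 0.30 with the mitochondrial share in the fit.

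HSPB1 (HSP27), a small chaperone that holds unfolding proteins without using ATP, had 716, 815 and 704 CPM in IRF2KO_pIRF2, 861, 1265 and 786 CPM in IRF2KO and 568, 637 and 846 CPM in WT. IRF2KO replicate 2 stood above the other 8 libraries and WT replicate 1 below them, and every pair of groups overlapped. The value in IRF2KO over WT was 0.51 ± 0.19 on the log2 scale (SE, interval 0.09 to 0.92, edgeR adjusted p = 0.26). It was 0.13 once trends with GC content and transcript length were removed and 0.69 without WT replicate 3. Set against IRF2KO, IRF2KO_pIRF2 gave -0.38 ± 0.19 (edgeR adjusted p = 0.45), -0.03 with those trends removed and -0.51 without IRF2KO replicate 3. HSF1, the regulator of the heat shock response, had the same highest and the same lowest library. It had 77.3, 75.8 and 79.4 CPM in IRF2KO_pIRF2, 78.4, 129 and 77.7 CPM in IRF2KO and 57.9, 69.2 and 95.7 CPM in WT. Its log2 value was 0.36 ± 0.21 in IRF2KO over WT (edgeR adjusted p = 0.32) and -0.30 ± 0.21 in IRF2KO_pIRF2 over IRF2KO (edgeR adjusted p = 0.53). Both turned in direction, to -0.07 and 0.10, with the GC and length trends removed. Over the 20 other settings tried they ran from -0.08 to 0.58 and from -0.42 to 0.10.

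BAG3, a co-chaperone that links HSP70 to autophagy, had 12.6, 13.4 and 12.5 CPM in IRF2KO_pIRF2, 13.8, 17.4 and 15.9 CPM in IRF2KO and 11.0, 12.7 and 15.6 CPM in WT. The IRF2KO_pIRF2 libraries lay below all IRF2KO libraries and within the range of WT. Set against WT, IRF2KO gave 0.26 ± 0.16 (edgeR adjusted p = 0.31) and IRF2KO_pIRF2 over IRF2KO -0.29 ± 0.16 (edgeR adjusted p = 0.45) on the log2 scale. With the GC and length trends removed these were 0.05 and -0.09. The first was 0.41 without WT replicate 3, and the second was -0.37 without IRF2KO replicate 1. HSPE1, the co-chaperonin of the mitochondrial chaperonin HSPD1, spread most of all 36 genes, with a highest library 3.13 times the lowest. It had 15.4, 17.2 and 16.9 CPM in IRF2KO_pIRF2, 22.3, 8.90 and 18.1 CPM in IRF2KO and 27.85, 19.1 and 10.6 CPM in WT. IRF2KO_pIRF2 over WT was -0.22 ± 0.34 (log2, edgeR adjusted p = 1.0). It was -0.51 without WT replicate 3, but 0.43 in a fit that also held the mitochondrial share. That share was 17.3% to 18.0% of counts in IRF2KO_pIRF2, 12.2% to 18.8% in IRF2KO and 12.7% to 17.1% in WT, and its part was not tested further. Of the words of 50 bases in the HSPE1 transcript, 52.9% also occur in transcripts of other genes, so its count depends on how such reads were treated.

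HSPA1B was named after its values were seen, because its unadjusted p was under 0.05 in a pair of comparisons. This gene of the inducible HSP70 had 3.52, 3.42 and 3.24 CPM in IRF2KO_pIRF2, 4.76, 5.72 and 4.45 CPM in IRF2KO and 3.60, 3.52 and 3.75 CPM in WT. All 3 IRF2KO libraries lay above the 6 others. IRF2KO over WT was 0.46 ± 0.16 (log2, interval 0.10 to 0.81, edgeR adjusted p = 0.26), and 0.22 with GC and length trends removed. IRF2KO_pIRF2 over IRF2KO was -0.55 ± 0.16 (interval -0.91 to -0.20, edgeR adjusted p = 0.42), and -0.34 with those trends removed. Without IRF2KO replicate 3 the 2 values were 0.53 and -0.63. HSPA1A and HSPA1B are near-identical neighbours: 73.5% of the words of 50 bases in HSPA1B occur in another gene. The split of reads between both, and the level of each, is therefore uncertain. HSPA1B also overlaps another annotated gene, AL671762.1, on the same strand over 36.5% of its exonic bases. HSPA1A had 2.66, 3.27 and 3.57 CPM in IRF2KO_pIRF2, 4.70, 3.79 and 3.32 CPM in IRF2KO and 3.04, 3.33 and 2.52 CPM in WT. Its groups overlapped.

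Of the heat shock genes, HSP90AB1 was the most abundant per length. It had 2112, 2662 and 2179 CPM in IRF2KO_pIRF2, 2745, 2294 and 2289 CPM in IRF2KO and 2608, 2569 and 2606 CPM in WT, and the groups overlapped. The other members (DNAJB1, DNAJA1, HSPA4, HSP90AA1 and HSPD1) had group means between 34.9 CPM (HSPA4 in IRF2KO) and 320 CPM (HSPD1 in WT). DNAJB1, the HSP40 partner of HSP70, had 65.3, 68.3 and 69.75 CPM in IRF2KO_pIRF2, 71.4, 74.9 and 71.2 CPM in IRF2KO and 57.55, 64.1 and 67.9 CPM in WT. All 3 IRF2KO libraries lay above the 6 others. The DNAJB1 value in IRF2KO over WT was 0.20 ± 0.10 (log2, edgeR adjusted p = 0.28), and 0.07 with GC and length trends removed. In IRF2KO_pIRF2 over IRF2KO it was -0.10 ± 0.10 (edgeR adjusted p = 0.65), and 0.00 with those trends removed. Over the 14 genes, the median log2 fold change was 0.07 in IRF2KO over WT with 8 higher and 6 lower, beside a median of -0.01 over all genes tested. It was -0.03 in IRF2KO_pIRF2 over IRF2KO (7 higher and 7 lower, all genes 0.00) and 0.09 in IRF2KO_pIRF2 over WT (9 higher and 5 lower, all genes -0.01). Single libraries moved these medians. The first was 0.16 without IRF2KO replicate 2 (12 higher and 2 lower), -0.01 without IRF2KO replicate 3 (6 higher and 8 lower) and -0.02 without IRF2KO replicate 1 (7 higher and 7 lower). The second was -0.10 without IRF2KO replicate 2 (4 higher and 10 lower) and 0.14 without IRF2KO replicate 1 (8 higher and 6 lower). The third ran from 0.02 without WT replicate 2 to 0.22 with the mitochondrial share in the fit. The summed level of the list was 4031 to 4838 CPM in IRF2KO_pIRF2, 4321 to 4891 CPM in IRF2KO and 4343 to 4572 CPM in WT. The 3 ranges overlapped.

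Of the ER folding genes, 4 share a promoter element. The ER stress element (CCAAT and CCACG with 9 free bases between them), which the factors NF-Y and ATF6 bind together, was found in the promoters of 4 of 9 genes of this list, on either strand. It was found in 22 of 27305 RefSeq promoters, which is 0.0806%. The 4 genes are the chaperones HSPA5 (BiP), HSP90B1 (GRP94) and CALR, and the transcription factor XBP1. HSP90B1 held it at -194 and at -89 from the start, and the others held 1 each, HSPA5 at -66, CALR at -225 and XBP1 at -52. The stretches are shown so that the shared letters can be compared, with CCAAT and CCACG, or ATTGG and CGTGG where the element reads on the opposite strand, in capitals. They are chr9:125241361-125241439 (minus strand), chr12:103930186-103930369 (plus), chr19:12938359-12938432 (plus) and chr22:28800573-28800651 (minus), from RefSeq on GRCh38.p14.
HSPA5: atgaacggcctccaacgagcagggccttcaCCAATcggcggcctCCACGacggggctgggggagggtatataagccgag
HSP90B1: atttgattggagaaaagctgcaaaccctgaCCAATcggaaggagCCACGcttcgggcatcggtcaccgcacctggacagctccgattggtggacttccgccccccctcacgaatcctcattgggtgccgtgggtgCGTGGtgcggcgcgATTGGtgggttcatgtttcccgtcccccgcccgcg
CALR: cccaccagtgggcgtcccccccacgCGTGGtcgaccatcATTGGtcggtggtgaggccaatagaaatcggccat
XBP1: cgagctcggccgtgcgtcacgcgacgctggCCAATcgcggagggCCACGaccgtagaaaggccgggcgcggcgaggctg
For HSPA8, HSP90B1, XBP1, ASNS and CHAC1, the stretch printed lies wholly or partly inside the GENCODE 29 span of the gene, whose outermost start differs from that of RefSeq. The core of the interferon-stimulated response element to which interferon regulatory factors bind (GAAA, 2 free bases, GAAA) was in 0 of the 34 member promoters on either strand, against 3.65% of all promoters. No match says only that these letters are not in this window.

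HSPA5, the master chaperone of the ER lumen (ENSG00000044574.7), had 263, 304.5 and 282 CPM in IRF2KO_pIRF2 and 267, 195.5 and 276 CPM in IRF2KO, against 305, 266 and 272 CPM in WT. IRF2KO replicate 2 was the lowest of the 9 libraries and the groups overlapped. Set against IRF2KO, IRF2KO_pIRF2 gave 0.20 ± 0.14 (log2, interval -0.10 to 0.50, edgeR adjusted p = 0.51). It was 0.06 without IRF2KO replicate 2 and 0.29 without IRF2KO replicate 3. HSP90B1 had 454, 484 and 492 CPM in IRF2KO_pIRF2, 518, 328 and 484 CPM in IRF2KO and 676, 536 and 452 CPM in WT. Again WT replicate 1 was the highest and IRF2KO replicate 2 the lowest. The value in IRF2KO over WT was -0.32 ± 0.18 (log2, edgeR adjusted p = 0.30), and 0.02 when those 2 libraries were left out. IRF2KO_pIRF2 over WT was -0.22 ± 0.18 (edgeR adjusted p = 1.0), and 0.04 with the mitochondrial share in the fit. Without WT replicate 3, HSP90B1 was -0.45 in IRF2KO over WT and -0.35 in IRF2KO_pIRF2 over WT.

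CALR, the most abundant of this list per length, binds glycoproteins and calcium. It had 1644, 1552 and 1648 CPM in IRF2KO_pIRF2, 1424, 1559 and 1533 CPM in IRF2KO and 1298, 1304 and 1596 CPM in WT, with overlap between groups. XBP1, the factor spliced by IRE1, had the narrowest spread of the 36 genes, with a highest library 1.22 times the lowest. It had 481, 486.5 and 490 CPM in IRF2KO_pIRF2, 487, 448.5 and 486 CPM in IRF2KO and 549, 541 and 482 CPM in WT. Set against WT, IRF2KO gave -0.14 ± 0.10 (log2, interval -0.35 to 0.06, edgeR adjusted p = 0.35). It was -0.03 with GC and length trends removed and -0.20 without WT replicate 3.

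PDIA4 and PDIA6 are protein disulfide isomerases that form and reshuffle disulfide bonds. PDIA4 (ENSG00000155660.10, chr7:149003062-149028641, minus strand) had 185.5, 168 and 184.5 CPM in IRF2KO_pIRF2, 182, 206.5 and 196 CPM in IRF2KO and 139, 158 and 163 CPM in WT. All 3 libraries of IRF2KO_pIRF2, and all 3 of IRF2KO, lay above all 3 of WT. IRF2KO over WT was 0.35 ± 0.10 (log2, interval 0.12 to 0.58, edgeR adjusted p = 0.26). It ranged from 0.24 to 0.39 over the 20 other settings tried, and the lowest adjusted p of any member in any setting was PDIA4 with DESeq2, at 0.088. IRF2KO_pIRF2 over WT was 0.23 ± 0.10 (interval -0.00 to 0.46, edgeR adjusted p = 1.0), 0.14 with the mitochondrial share in the fit and 0.27 without WT replicate 3. PDIA6 had 268, 310 and 284.5 CPM in IRF2KO_pIRF2, 329, 164 and 270 CPM in IRF2KO and 409.5, 324.5 and 264 CPM in WT. Its log2 value in IRF2KO over WT was -0.39 ± 0.22 (edgeR adjusted p = 0.31), and 0.03 without WT replicate 1 and IRF2KO replicate 2. IRF2KO_pIRF2 over IRF2KO was 0.18 ± 0.22 (edgeR adjusted p = 0.70), and -0.06 without IRF2KO replicate 2. IRF2KO_pIRF2 over WT was -0.21 ± 0.22 (edgeR adjusted p = 1.0), and 0.16 with the mitochondrial share in the fit. For PDIA6 the 20 other settings gave -0.62 to 0.03, -0.06 to 0.41 and -0.35 to 0.16 in those 3 comparisons. PDIA6 shares 25.2% of its exonic bases with ATP6V1C2 on the opposite strand, and with the strand setting unknown the source of reads there cannot be told apart.

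SDF2L1, a cofactor of HSPA5, had 6.44, 5.06 and 6.765 CPM in IRF2KO_pIRF2, against 8.67, 7.59 and 7.78 CPM in IRF2KO and 6.59, 6.65 and 7.19 CPM in WT. The 3 IRF2KO libraries lay above the 6 others. Set against IRF2KO, IRF2KO_pIRF2 gave -0.39 ± 0.16 (log2, edgeR adjusted p = 0.44). It was -0.47 without IRF2KO_pIRF2 replicate 3 and -0.01 with GC and length trends removed. The SDF2L1 value in IRF2KO over WT was 0.23 ± 0.16 (edgeR adjusted p = 0.35), but -0.19 with those trends removed. HERPUD1, which helps to degrade ER proteins, had 44.6, 42.2 and 49.5 CPM in IRF2KO, against 52.8, 51.5 and 55.5 CPM in WT, without overlap. The HERPUD1 value was -0.23 ± 0.11 on the log2 scale (edgeR adjusted p = 0.27), and -0.15 with GC and length trends removed. DNAJB9, a co-chaperone of HSPA5, stayed between 2.83 and 5.15 CPM in all libraries. Over the 9 genes, the median log2 fold change was -0.19 in IRF2KO over WT (3 higher and 6 lower), 0.10 in IRF2KO_pIRF2 over IRF2KO (7 higher and 2 lower) and -0.11 in IRF2KO_pIRF2 over WT (3 higher and 6 lower). The medians over all genes tested were -0.01, 0.00 and -0.01. Without WT replicate 1 and IRF2KO replicate 2, the first median of the 9 genes was 0.02 (6 higher and 3 lower). It was -0.07 with GC and length trends removed (1 higher and 8 lower) and -0.28 without IRF2KO replicate 3 (3 higher and 6 lower). The second was 0.00 without IRF2KO replicate 2 and -0.01 with GC and length trends removed, each with 4 higher and 5 lower. It was 0.17 without IRF2KO replicate 3 (7 higher and 2 lower). The third was 0.04 with the mitochondrial share in the fit (5 higher and 4 lower). It was -0.13 when libraries were scaled by their totals only (2 higher and 7 lower). The summed level was 3352.5 to 3440.5 CPM in IRF2KO_pIRF2, 2955 to 3307 CPM in IRF2KO and 3192 to 3442 CPM in WT.

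ATF4 and its targets are known for an element that ATF4 binds with a C/EBP partner. The letters TGATGCAA or TGATGAAA, on either strand, were found in the promoters of 2 of the 12 genes of this list that matched RefSeq, ASNS at -68 and CHAC1 at -209, against 546 of the 27305 promoters, or 2%. HERPUD1 also held it, at -176. The stretches around both elements are chr7:97872439-97872506 (minus strand) and chr15:40953232-40953299 (plus strand, element on the opposite strand), from RefSeq on GRCh38.p14, with the element in capitals.
ASNS: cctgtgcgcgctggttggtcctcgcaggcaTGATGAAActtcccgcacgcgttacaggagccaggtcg
CHAC1: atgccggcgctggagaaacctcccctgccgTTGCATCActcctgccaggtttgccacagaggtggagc
Both are shown because these genes stand at unlike levels with the same kind of element, ASNS at 12.3 and CHAC1 at 0.553 CPM per kilobase over the 9 libraries.

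ATF4 itself (ENSG00000128272.14, chr22:39519695-39522685, plus strand) had 655, 640 and 650 CPM in IRF2KO_pIRF2, 723, 846 and 718 CPM in IRF2KO and 611, 717 and 734.5 CPM in WT. The IRF2KO_pIRF2 libraries lay below all 3 IRF2KO libraries, and WT overlapped both groups. The value in IRF2KO over WT was 0.15 ± 0.11 (log2, interval -0.09 to 0.39, edgeR adjusted p = 0.39). It was -0.01 without both WT replicate 1 and IRF2KO replicate 2, and 0.20 without WT replicate 3.

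DDIT3 (CHOP), a transcription factor linked to cell death under lasting stress, was lower than in WT in every library of both other groups. It had 10.1, 12.3 and 10.2 CPM in IRF2KO_pIRF2, 12.2, 10.3 and 11.1 CPM in IRF2KO and 14.4, 16.2 and 15.5 CPM in WT. Set against WT, IRF2KO gave -0.46 ± 0.14 (log2, interval -0.76 to -0.15, edgeR adjusted p = 0.26), and IRF2KO_pIRF2 over WT was -0.50 ± 0.14 (interval -0.80 to -0.19, edgeR adjusted p = 0.74). The WT libraries are the same in both. Over the 20 other settings the first ran from -0.53 to -0.40 and the second from -0.60 to -0.43, and none brought an adjusted p under 0.05. DDIT3 (ENSG00000175197.10, chr12:57516588-57521737, minus strand) shares 39.6% of its exonic bases with other genes, chiefly MARS on the opposite strand. Because the strand setting of the counting is not given in the sources used here, the source of reads there cannot be told apart.

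The amino acid and folate genes of the list are PSAT1 and PHGDH (serine synthesis), ASNS (asparagine), CTH (cysteine), SLC7A11 (cystine import) and MTHFD2 (mitochondrial folate cycle). PSAT1 had 467, 474 and 477 CPM in IRF2KO_pIRF2, 593, 426.5 and 518 CPM in IRF2KO and 710, 624 and 491 CPM in WT. All 3 IRF2KO_pIRF2 libraries lay below all 3 WT libraries. The log2 value was -0.36 ± 0.15 (interval -0.69 to -0.04, edgeR adjusted p = 1.0). It was -0.50 without WT replicate 3, but -0.12 in a fit that also held the mitochondrial share. ASNS had 48.3, 51.45 and 47.2 CPM in IRF2KO_pIRF2, 62.5, 39.9 and 51.9 CPM in IRF2KO and 72.0, 65.3 and 55.2 CPM in WT, again with IRF2KO_pIRF2 below all of WT. Its log2 value was -0.39 ± 0.16 (interval -0.74 to -0.04, edgeR adjusted p = 1.0). It was -0.49 without WT replicate 3, but -0.13 with the mitochondrial share in the fit. ASNS overlaps another annotated gene on the same strand over 44.6% of its exonic bases. Of the words of 50 bases in the ASNS transcript, 82.0% also occur in transcripts of other genes, so its count depends on how such reads were treated.

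MTHFD2 had 108, 108.5 and 115 CPM in IRF2KO_pIRF2, 108, 78.7 and 111 CPM in IRF2KO and 152, 131.5 and 108 CPM in WT. IRF2KO and WT overlapped at WT replicate 3. IRF2KO over WT was -0.40 ± 0.15 (log2, interval -0.74 to -0.07, edgeR adjusted p = 0.26). It was -0.13 without both WT replicate 1 and IRF2KO replicate 2, and -0.52 without WT replicate 3. MTHFD2 shares 33.2% of its exonic bases with AC006030.1 and SLC4A5 on the opposite strand, so the source of reads there cannot be told apart either. CTH had 13.5, 17.6 and 15.0 CPM in IRF2KO_pIRF2, against 11.6, 10.6 and 15.9 CPM in IRF2KO, with overlap (log2 0.28 ± 0.19, edgeR adjusted p = 0.51). The CTH value ran from 0.11 with GC and length trends removed to 0.48 without IRF2KO replicate 3. PHGDH averaged 210.5 ± 18.3 CPM in IRF2KO_pIRF2, 242.5 ± 26.1 CPM in IRF2KO and 249 ± 31.6 CPM in WT (SD, n = 3 each). SLC7A11 averaged 16.45 ± 1.51, 17.6 ± 3.27 and 19.35 ± 4.23 CPM in the same 3 groups, IRF2KO_pIRF2, IRF2KO and WT.

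PPP1R15A (GADD34) brings a phosphatase to eIF2 alpha and so ends the response, and SESN2 restrains mTORC1 signalling. PPP1R15A had 12.9, 12.5 and 13.2 CPM in IRF2KO_pIRF2, 13.8, 20.5 and 12.6 CPM in IRF2KO and 9.47, 11.7 and 16.2 CPM in WT. IRF2KO replicate 2 was again the highest library. The value in IRF2KO over WT was 0.33 ± 0.22 (log2, edgeR adjusted p = 0.36), and -0.09 without WT replicate 1 and IRF2KO replicate 2. IRF2KO_pIRF2 over IRF2KO was -0.28 ± 0.22 (edgeR adjusted p = 0.55), and -0.04 without IRF2KO replicate 2. Across the 20 other settings the PPP1R15A values ran from -0.09 to 0.56 and from -0.41 to -0.04. SESN2 had 18.4, 15.4 and 18.2 CPM in IRF2KO_pIRF2, against 19.2, 31.0 and 20.2 CPM in IRF2KO and 15.0, 21.1 and 21.8 CPM in WT. IRF2KO_pIRF2 lay below all of IRF2KO and overlapped WT (log2 -0.44 ± 0.20 over IRF2KO, edgeR adjusted p = 0.45). That value was -0.19 with GC and length trends removed, also -0.19 without IRF2KO replicate 2, and -0.56 without IRF2KO replicate 1. ATF3, a factor that dampens inflammatory genes, had 1.89, 2.48 and 2.096 CPM in IRF2KO_pIRF2, against 1.81, 1.52 and 1.35 CPM in IRF2KO, without overlap. The ATF3 value was 0.46 ± 0.21 on the log2 scale (edgeR adjusted p = 0.45), and 0.45 with GC and length trends removed. CHAC1 had 1.13, 1.97 and 1.18 CPM in IRF2KO, against 0.978, 0.718 and 1.08 CPM in WT, also without overlap. The CHAC1 value was 0.62 ± 0.29 on the log2 scale (edgeR adjusted p = 0.27), but 0.26 with GC and length trends removed. TRIB3, a pseudokinase that binds ATF4, stayed between 90.03 and 137 CPM in all libraries.

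Over the 13 genes of ATF4 and its targets, the median log2 fold change was -0.08 in IRF2KO over WT (5 higher and 8 lower), -0.12 in IRF2KO_pIRF2 over IRF2KO (3 higher and 10 lower) and -0.16 in IRF2KO_pIRF2 over WT (5 higher and 8 lower). All genes tested had medians of -0.01, 0.00 and -0.01. The first median of the 13 genes was 0.00 with GC and length trends removed and 0.06 without WT replicate 3, each with 7 higher and 6 lower. It was -0.07 without WT replicate 1 and IRF2KO replicate 2 (2 higher and 11 lower) and -0.14 without IRF2KO replicate 3 (6 higher and 7 lower). The second was 0.00 without IRF2KO replicate 1 (7 higher and 6 lower) and -0.14 when libraries were scaled by their totals only (3 higher and 10 lower). The third ran from -0.23 with a mean of at least 5 CPM required to -0.06 without WT replicate 3. The summed level of the list was 1652 to 1689 CPM in IRF2KO_pIRF2, 1807 to 1902 CPM in IRF2KO and 1877 to 1964 CPM in WT. The IRF2KO_pIRF2 libraries lay below the 6 others in this sum, most of which is ATF4 and PSAT1. This order was seen after the fact and was not tested.

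IRF2KO replicate 2 and WT replicate 1, which stood apart on the first principal component, also held the ends of the range for most members. IRF2KO replicate 2 was the highest or lowest of the 9 libraries for 29 of 36 genes (80.6%), beside 72.1% of all genes tested. It was the highest for 11 and the lowest for 18. WT replicate 1 was at an end for 23 of 36 (63.9%, beside 59.5%). The median SD of log2 CPM within a group was 0.085 in IRF2KO_pIRF2, 0.269 in IRF2KO and 0.196 in WT over the 36 genes, beside 0.0912, 0.252 and 0.205 over all genes.

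**Figure D3:**
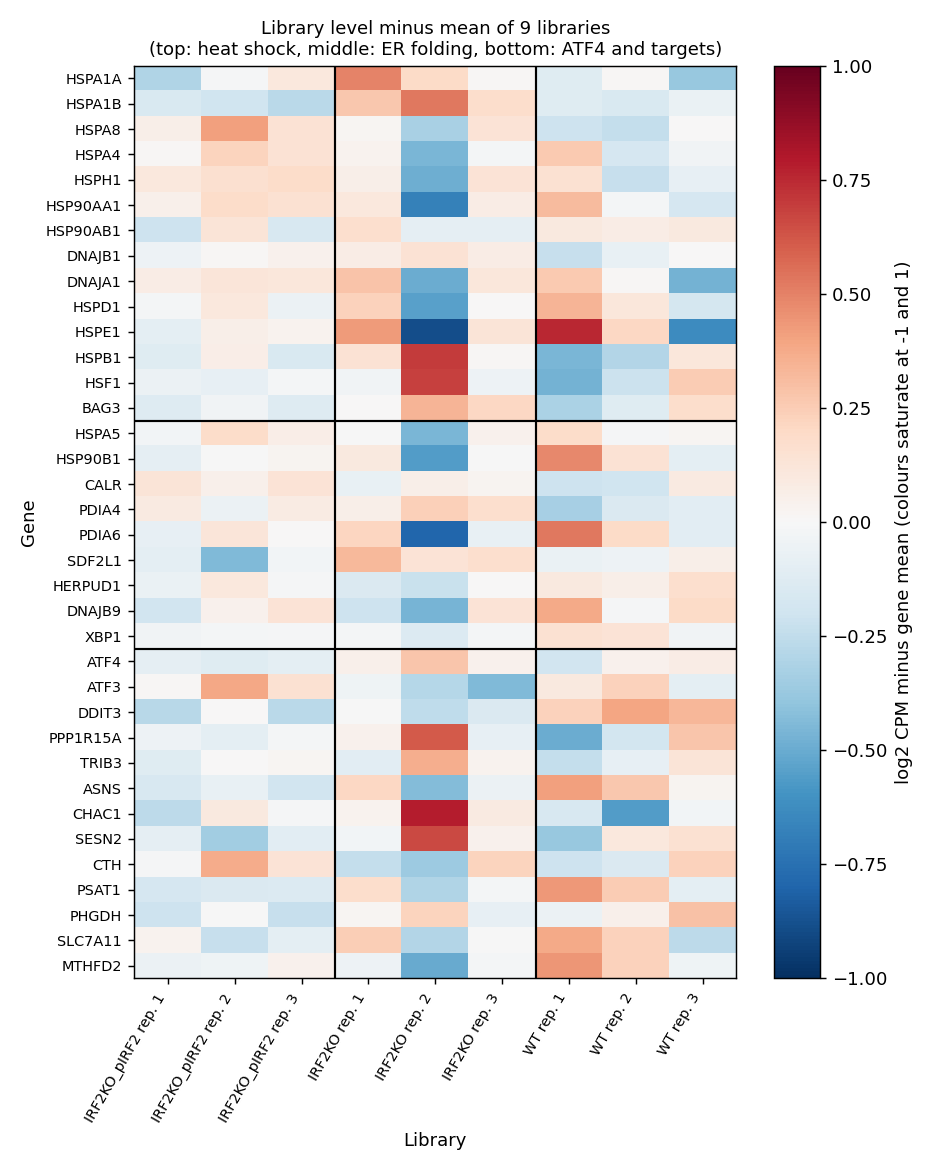
Each cell is the log2 CPM of a gene (vertical axis) in a library (horizontal axis: 3 of IRF2KO_pIRF2, 3 of IRF2KO, 3 of WT) minus that gene's mean over the 9 libraries, red above and blue below. The columns of IRF2KO replicate 2 and WT replicate 1 are the most strongly coloured and mostly opposite in sign, and the 3 IRF2KO_pIRF2 columns are pale.

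The side on which a gene fell in IRF2KO replicate 2 went with the GC content of its transcripts. All 15 members above the mean of the other 8 libraries had a GC content of 53.5% to 66.1%, and all 21 members below it had 35.9% to 50.5%. Of all genes tested, 93.6% of the 4251 with a GC content of 53.5% or more lay above in that library, and 83.6% of the 6143 with 50.5% or less lay below. All 15 of the high-GC members lay below the mean of the other libraries in WT replicate 1, and 19 of the 21 low-GC members lay above it. CHAC1 (GC 62.6%), HSPB1 (63.6%), HSF1 (63.9%) and SESN2 (59.5%) stood 0.88, 0.78, 0.77 and 0.74 above in IRF2KO replicate 2 on the log2 scale. HSPE1 (46.6%), PDIA6 (46.2%) and HSP90AA1 (45.1%) stood at -0.99, -0.89 and -0.76. As a description across genes of the same library, which are not independent replicates, GC content and this value had Pearson's r of 0.86 and Spearman's rho of 0.84 over the 36 genes, beside 0.81 and 0.82 over 11502 genes. With GC and length trends removed, the median SD over the 9 libraries was 0.158 for the 36 genes instead of 0.252, beside 0.151 instead of 0.233 for all genes. IRF2KO replicate 2 was then at an end for 14 of 36 genes (38.9%, beside 46.5%).

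**Figure D4:**
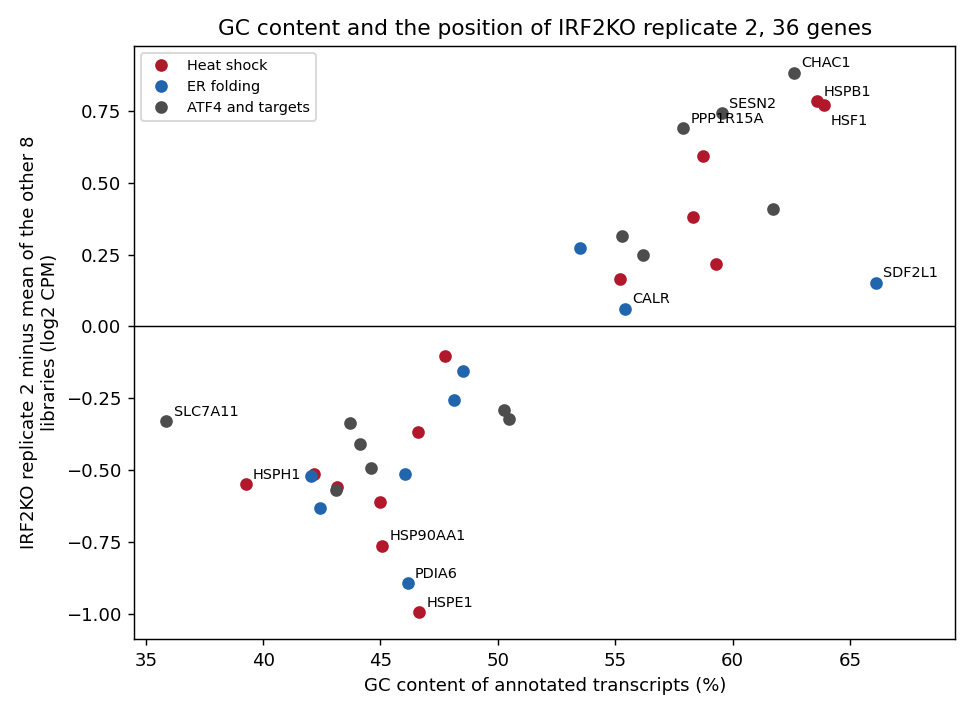
Each point is 1 of the 36 genes: its GC content in percent (horizontal axis) and the log2 CPM of IRF2KO replicate 2 minus the mean of the other 8 libraries (vertical axis), coloured by list. The 15 genes at 53.5% or more all lie above 0 and the 21 at 50.5% or less all lie below it.

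Wider lists of the same pathways were tested as well. Of 44 tested cytosolic chaperones and cofactors, 40 further ER folding and unfolded protein response genes and 45 further genes of the integrated stress response, edgeR called 0 in each of the 3 comparisons. At an unadjusted p under 0.05 in IRF2KO against WT, edgeR gave 5 of 44, 5 of 40 and 7 of 45, beside 18.7% of all genes. It gave 2, 2 and 5 in IRF2KO_pIRF2 against IRF2KO (beside 11.2%) and 0, 2 and 0 in IRF2KO_pIRF2 against WT (beside 3.92%). Limma-voom called 0 of these genes in all 3 comparisons. DESeq2 called 0 of the first 2 lists and, in the comparisons that hold IRF2KO, 1 gene of the last, EIF2AK2 (PKR), the double-stranded RNA kinase of eIF2 alpha, which interferon induces. EIF2AK2 is named after its values were seen. It had 76.3, 73.4 and 80.6 CPM in IRF2KO_pIRF2, 54.8, 52.2 and 62.5 CPM in IRF2KO and 90.1, 77.5 and 77.8 CPM in WT. All 3 IRF2KO libraries lay below the 6 others. Set against WT, IRF2KO gave -0.53 ± 0.11 (log2, edgeR adjusted p = 0.11, DESeq2 adjusted p = 0.0020). Set against IRF2KO, IRF2KO_pIRF2 gave 0.44 ± 0.11 (edgeR adjusted p = 0.31, DESeq2 adjusted p = 0.043). With GC and length trends removed these were -0.31 and 0.23 (edgeR adjusted p = 0.13 and 0.38). Of the 20 other settings, DESeq2 alone brought it under 0.05, in each of these comparisons, and the adjusted p ran from 0.0020 to 0.46 and from 0.043 to 0.79.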

How the data were processed

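RNA-seq was available for 9 libraries, 3 each labelled IRF2KO_pIRF2, IRF2KO and WT. Per the labels' protocols, a Macherey Nagel kit gave the RNA and Lexogen's SENSE kit V2 for mRNA the libraries. The authors deposited 1 table of raw counts of reads on each gene, without normalisation. Per the submitters' processing notes, reads were handled on hg38 with HTSeq 0.9.1, TopHat2 2.1.1, Bowtie2 2.3.3, bedtools and SAMtools. Their settings, among them strand and annotation release, are in none of the sources used here, so how reads on overlapping or near-identical genes were treated is unknown.

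From these counts, low genes were removed by filterByExpr, libraries were scaled by TMM, and a single fit without covariates over the 9 libraries gave quasi-likelihood F-tests (edgeR 4.0.16, R 4.3.3). P-values were Benjamini-Hochberg adjusted over 11517 genes, and the threshold was 0.05. Intervals (95%) are the log2 fold change plus and minus the SE, which was derived from the F statistic, times the t quantile. DESeq2 1.42.0, limma-voom 3.58.1 and 18 other settings were tried. Of 20265 identifiers, 20012 matched GENCODE 29 on GRCh38, which gave symbols, coordinates, exonic length, GC content, overlaps and shared words of 50 bases. RefSeq promoters matched 34 of 36 members, and those of HSF1 and SLC7A11 were not used here. With 14824907 counts or more per library, 3 counts correspond to at most 0.196 CPM. This floor rests on counts alone, while the SE behind the intervals includes the spread between these libraries. The code was tested on simulated data with known changes.

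The 36 members and all gene lists and motifs were chosen with earlier results of these data known. Values per library are given for IRF2, for any member called, for the 3 largest log2 fold changes per list and comparison among members that average 5 CPM or more in the higher group, for the most abundant member per length of each list, and for HSF1, XBP1 and ATF4. Members named outside this rule were chosen after their values were seen. The labels do not say whether replicate numbers pair the libraries, and the main fit did not pair them. Deviations of same-numbered libraries from their group means correlated between -0.43 and 0.61. Those of other pairs of libraries correlated between -0.73 and 0.71, so these values cannot decide whether pairs exist.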

Additional observations from a re-analysis of the deposited data

How the results depend on the processing

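In 20 settings besides the one reported, 0 of 2145 tests of a member had an adjusted p under 0.05, and the lowest was 0.088. The number of genes called among all tested moved more. IRF2KO against WT gave 48, and 121 with DESeq2, 29 with a mean of at least 5 CPM required, 31 with only the 2 groups compared, 111 with GC and length trends removed, and 34 to 49 when a library was left out. IRF2KO_pIRF2 against IRF2KO gave 42, and 68, 25 and 72 with DESeq2, the 5 CPM filter and the GC and length correction, and 26 to 47 when a library was left out. IRF2KO_pIRF2 against WT gave 9, and 39, 3 and 46 with those settings, 18 with no filter, 16 with only the 2 groups, 27 without WT replicate 1 and IRF2KO replicate 2, and 3 (without WT replicate 2) to 25 (without IRF2KO replicate 2) when a library was left out. The replicate block, fitted although the labels name no pairs, gave 39, 36 and 7 and changed no call of a member. It put IRF2 in IRF2KO over WT at an adjusted p of 0.064 (edgeR). In IRF2KO over WT, leaving out both of those libraries turned ATF4 to -0.01, HSF1 to -0.08, HSP90B1 to 0.02, PDIA6 to 0.03 and PPP1R15A to -0.09 on the log2 scale, and the GC and length correction turned HSF1 to -0.07. In IRF2KO_pIRF2 over IRF2KO, that correction turned HSF1 to 0.10, and PDIA6 was -0.06 without both libraries and -0.06 to 0.41 when 1 was left out. In IRF2KO_pIRF2 over WT, the mitochondrial share as a term turned HSP90B1 to 0.04, HSPE1 to 0.43 and PDIA6 to 0.16, and HSPE1 was 0.17 without both libraries and -0.51 to 0.16 when 1 was left out. The cause was not tested. CHAC1, ATF3 and HSPA1A, at a few CPM, have the fewest counts and intervals of 0.4 log2 units or more to a side. Width did not follow counts alone. In IRF2KO over WT the interval of HSPA1B, also at a few CPM, ran from 0.10 to 0.81. Those of the more abundant HSPE1 and PDIA6 ran from -0.98 to 0.52 and from -0.87 to 0.10.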

Other observations

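Neighbouring stress programs were read the same way from 2 lists that hold no member. Of 13 tested genes of the oxidative stress response and 16 tested immediate early genes, edgeR called 0 in each of the 3 comparisons. At an unadjusted p under 0.05, edgeR gave 3 of 13 and 3 of 16 in IRF2KO against WT, beside 18.7% of all genes. It gave 3 and 2 in IRF2KO_pIRF2 against IRF2KO (beside 11.2%) and 3 and 1 in IRF2KO_pIRF2 against WT (beside 3.92%). Limma-voom called 0 as well, and DESeq2 called FTH1 alone, in the comparisons that hold IRF2KO_pIRF2. FTH1, the heavy chain of the iron store ferritin, had 394, 481 and 444.5 CPM in IRF2KO_pIRF2, 309, 320 and 292 CPM in IRF2KO and 318, 308 and 306.5 CPM in WT. All 3 IRF2KO_pIRF2 libraries lay above the 6 others. FTH1 was 0.52 ± 0.10 in IRF2KO_pIRF2 over IRF2KO (log2 and SE, edgeR adjusted p = 0.074) and 0.50 ± 0.10 in IRF2KO_pIRF2 over WT (edgeR adjusted p = 0.17). In DESeq2 its adjusted p was 3.0e-04 and 0.0012. With GC and length trends removed FTH1 was 0.57 and 0.49 (edgeR adjusted p = 0.0022 and 0.015). Over all 20 other settings the adjusted p ran from 3.0e-04 to 0.45 in the first comparison, with 4 under 0.05, and from 0.0012 to 0.94 in the second, with 3 under 0.05. BEST1 covers 62.4% of the exonic bases of FTH1 on the opposite strand, and the strand setting of the counting is not given in the sources used here.

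FOSL1, a member of the AP-1 family of transcription factors, had 8.78, 15.8 and 9.97 CPM in IRF2KO, against 6.02, 6.20 and 8.52 CPM in WT, without overlap (log2 0.74 ± 0.23, edgeR adjusted p = 0.26). With GC and length trends removed it was 0.45 (edgeR adjusted p = 0.21). These genes were named after their values were seen.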
